A study of Mus musculus with 6 samples.

Results

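MicroRNA genes measured in poly(A) RNA of the mouse eye were taken as the gene entries whose symbol starts with Mir and a digit, or with Mirlet, and whose value was at least 1 RPKM (reads scaled by gene length and by the reads of the library) in 3 or more of 6 libraries. This rule kept 35 of the 615 microRNA entries among the 22692 genes in the deposited tables. The entries were chosen by their RPKM in these same libraries, so the levels of the kept entries are a description. Of the 35, 34 are single hairpins of 66 to 109 nt, and the other, Mir17hg, is the host transcript of the miR-17-92 cluster. The libraries came from whole eyes of female C57BL/6J mice, an inbred laboratory strain, aged 4 weeks, and each was made from pooled RNA of 5 mice. There were 3 libraries at 1.5 h after light onset and 3 at 9.0 h after light onset, and no other treatment or genotype entered the comparison. Nothing in the labels states that replicate pools came from separate mice, and the p-values then reflect only how far these libraries differ, which may be technical. Rod photoreceptor markers were present in every library, with the RPKM of 6 rod genes summing to between 10752 and 12549.

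A microRNA is a short RNA that guides Argonaute proteins to target mRNAs, mainly by pairing of its seed, bases 2 to 8. It is cut from a hairpin in a longer primary transcript, first by Drosha with Dgcr8 in the nucleus and then by Dicer1 in the cytoplasm. The mature RNA has no poly(A) tail, while most primary transcripts and the mRNAs that carry hairpins in their introns or exons do. Values in poly(A) RNA therefore come from reads on longer transcripts, not from the mature microRNA. These can be primary or host transcripts over the hairpin, or transcripts of other loci with a nearly identical sequence. In the retina, the Mir183, Mir96 and Mir182 cluster is known for its high level in photoreceptors, Mir124 and Mir9 for their expression in neurons and progenitors, Mir204 and Mir211 for expression in the pigment epithelium, and let-7 for a role in developmental timing.

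The sequences the results turn on are shown 5′ to 3′ from RefSeq, with coordinates on GRCm38.p6. The deposited values were made on mm9. The tables used here matched 34 of the 35 entries to RefSeq hairpins and 32 of them to a sequence. The 5p arms of the 3 let-7 entries are shown because they share a seed, in capitals, and one of them passed the test between the times.
let-7d-5p, chr13:48536078-48536099, minus strand: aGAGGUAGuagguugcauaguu
let-7b-5p, chr15:85707325-85707346, plus strand: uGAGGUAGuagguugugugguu
let-7c-5p, chr15:85706616-85706637, plus strand: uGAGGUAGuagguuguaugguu
The seed GAGGUAG was the only 5p seed that several of the kept entries had in common, and let-7b and let-7c also shared the seed UAUACAA on their 3p arms. Over the 32 entries there were 52 mature sequences with 49 distinct seeds.

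The arms of microRNAs known from the neural retina, photoreceptors and pigment cells are shown for comparison, again with the seed in capitals, since miR-9-5p and miR-7a-5p come from kept entries and the others from entries that fell short of the rule.
miR-9-5p, from Mir9-2, chr13:83738821-83738843, plus strand: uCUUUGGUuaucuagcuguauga
miR-7a-5p, from Mir7-1, chr13:58392841-58392863, minus strand: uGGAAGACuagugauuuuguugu
miR-183-5p, chr6:30169711-30169732, minus strand: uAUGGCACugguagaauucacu
miR-96-5p, chr6:30169506-30169528, minus strand: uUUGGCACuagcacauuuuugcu
miR-182-5p, chr6:30165962-30165986, minus strand: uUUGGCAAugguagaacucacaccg
miR-204-5p, chr19:22750610-22750631, plus strand: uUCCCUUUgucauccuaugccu
miR-211-5p, chr7:64205831-64205852, plus strand: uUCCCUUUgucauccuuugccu
The seeds of miR-183-5p, miR-96-5p and miR-182-5p differ from each other, while miR-204-5p and miR-211-5p share UCCCUUU.

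The hairpin of Mir682 is shown because this entry had the highest value of the 35 and its sequence recurs almost unchanged in a protein-coding mRNA. The capital marks the single base that differs from the coding sequence of Rpl37a, a protein of the large ribosomal subunit. Counted from the 5′ end of the hairpin, the substitution is C48T, with T in the Rpl37a mRNA, and 95 of the 96 bases are identical.
Mir682 hairpin, chr13:75645046-75645141, plus strand: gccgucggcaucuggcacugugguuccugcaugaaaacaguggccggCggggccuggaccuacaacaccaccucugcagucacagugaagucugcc
All 96 aligned bases lie in the coding part of Rpl37a, and GENCODE M21 places this hairpin inside a processed pseudogene, Gm4149.

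Because the hairpins are short, the values rest on few reads. Each value multiplied by the RefSeq hairpin length was a whole multiple of 1 step per library, within 0.1 read, for 204 of 204 values (34 hairpins in 6 libraries). The steps correspond to rounded totals of 29040000, 12750000 and 13050000 at 1.5 h and 31890000, 30200000 and 24110000 at 9.0 h. One read on a hairpin of 80 nt was then worth between 0.392 and 0.981 RPKM, and 3 reads between 1.176 and 2.942 RPKM. A hairpin of that length at 1 RPKM thus had between 1 and 3 reads, and the intervals given for reads cover counting error only.

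Over all 6 libraries the 34 hairpins held 3303 reads, with a median of 27 reads per hairpin. Mir682, Mir3064 and Mir703 held 2285 of these reads (69.2%). A total of 28 hairpins never reached 20 reads in any library, 18 never passed 10, and 27 had at least 1 library with 2 or fewer reads. Of all 615 microRNA entries, 419 (68.1%) were listed at 0 in all 6 libraries. The plot of reads by library shows how few entries lie above 20 reads.

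**Figure D1:**
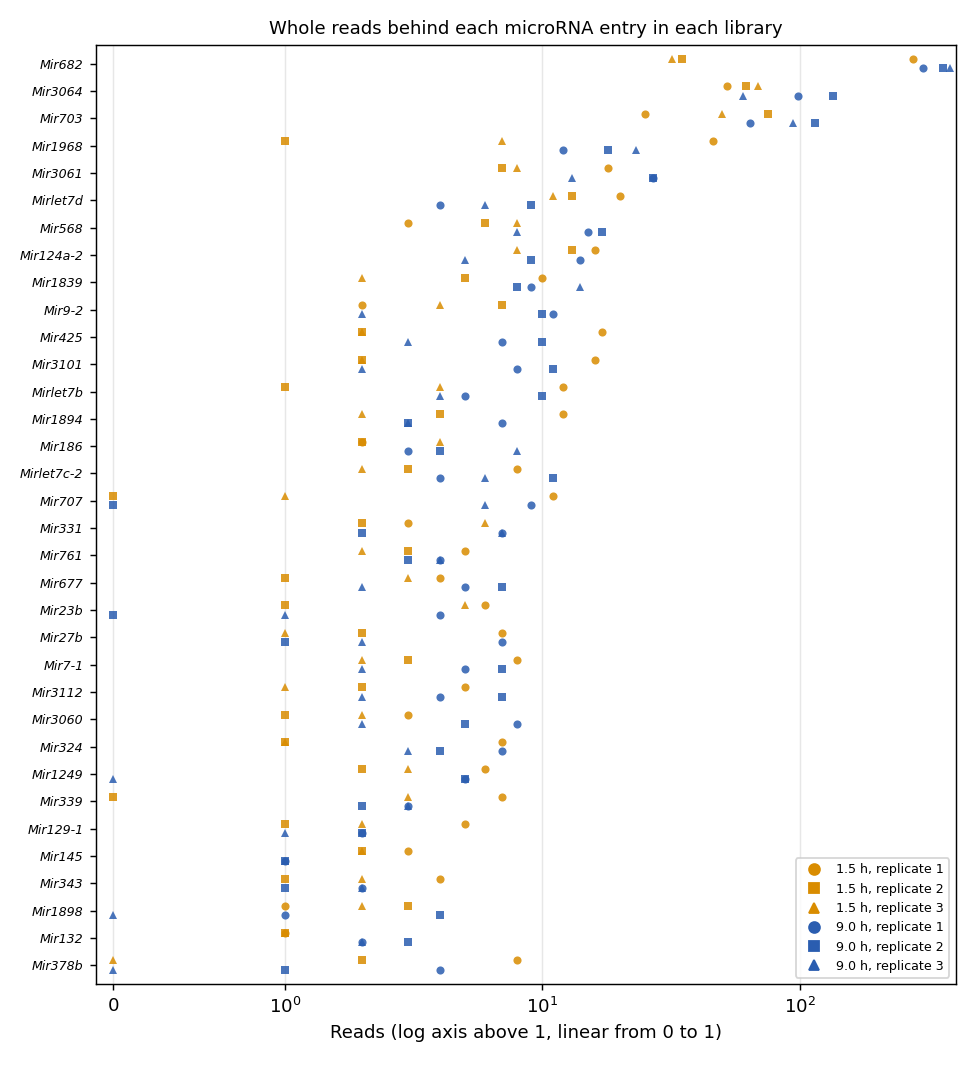
Whole reads behind each of the 34 hairpin entries in each library, on an axis that is logarithmic above 1 and linear from 0 to 1, with color for the time and symbol for the replicate. Mir682, Mir3064 and Mir703 lie at 25 reads or more in every library, while 28 hairpins stay under 20 in all 6.

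The number of libraries at 1 RPKM or more split the 35 entries into 14 that reached it in all 6, 16 in 4 or 5, and 5 in exactly 3. The 5 at the edge of the rule were Mir1898, Mir145, Mir378b, Mir339 and Mir129-1, which had their lowest value at or above the cutoff between 1.07 and 1.60 RPKM. Just outside were Mir344-2, Mir2861 and Mir27a, which had 2 libraries above the cutoff and the next at 0.98, 0.96 and 0.95 RPKM. Mir145 and Mir129-1 reached 1 RPKM in the 1.5 h libraries only. These 2 entries entered through the time at which they were high, so a difference between the times was built into their choice.

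Mir682, Mir3064 and Mir703 had the highest means, and each lay inside a protein-coding gene or was nearly identical to part of one. The part of those genes in the values was not tested. Mir682 was at 98.6, 28.6 and 25.5 RPKM at 1.5 h and at 98.6, 124 and 165 RPKM at 9.0 h, from 275, 35 and 32 reads and from 302, 360 and 383 reads. Replicate 1 of 1.5 h stood with the 9.0 h libraries, about level with the lowest of them, and the other 1.5 h libraries were lower. The groups did not overlap, although the nearest values of the times were 98.63 and 98.64 RPKM. The log2 fold change was 1.60 (SE 0.55) and did not pass the test, with an adjusted p of 0.379 by limma. Rpl37a itself was at 49.4, 56.7 and 37.7 RPKM at 1.5 h and at 52.0, 68.5 and 82.3 RPKM at 9.0 h. In GENCODE M21, 23 other gene names, Rpl37a among them, held sequence at least 90% identical over at least 90% of the Mir682 hairpin. Pseudogene and microRNA names among them had the same alignment in pairs, such as Gm13875 and Gm22757, so separate loci may be fewer. How reads with several matches were treated is not given in the sources used here, so the value of Mir682 is uncertain.

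Mir3064 lies on chromosome 11, in Ddx5, which encodes an RNA helicase of the Drosha complex. All 67 of its bases fall in an exon of a Ddx5 transcript that GENCODE M21 classes as nonsense-mediated decay, not as protein-coding. Only 1 of them lies in an exon of the protein-coding transcripts of Ddx5. Its values were 26.7, 72.6 and 78.9 RPKM at 1.5 h and 45.9, 66.7 and 37.1 RPKM at 9.0 h. The libraries of both times overlapped, and replicate 1 of 1.5 h was the lowest of all. The log2 fold change was -0.14 (SE 0.44, limma adjusted p = 0.936). Ddx5 was at a mean of 161 RPKM over the 6 libraries, and Mir3064 was at 34.0% of that level per length.

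Mir703 had no host gene on its strand, lay antisense in Cfap299, and was 98.2% identical (107 of 109 bases, with the substitution A27G and 1 gap) to a noncoding part of the mRNA of Eef1a1, the translation elongation factor. It stood at 7.90, 54.0 and 35.1 RPKM at 1.5 h and at 18.4, 34.6 and 35.8 RPKM at 9.0 h. The lowest of the 6 libraries was again replicate 1 of 1.5 h, and the times overlapped. Its log2 fold change was 0.20 (SE 0.83, limma adjusted p = 0.954). Eef1a1 was at 690, 705 and 451 RPKM at 1.5 h and at 955, 954 and 1007 RPKM at 9.0 h. Of the 32 hairpins with a sequence to search, the only other one with a copy elsewhere by the same criterion was Mir9-2. Its identity to Mir9-1 was 93.2%. Gm25641, on the opposite strand, gave the same alignment and may be the same locus.

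Mir1968, in an intron of Grtp1, had a wide spread between replicates, with an SD within a time of 1.58 on the log2(RPKM + 0.1) scale. It was at 23.3, 1.15 and 7.89 RPKM at 1.5 h, from 46, 1 and 7 reads, and at 5.53, 8.77 and 14.0 RPKM at 9.0 h, from 12, 18 and 23 reads. Its log2 fold change of 0.53 (SE 1.22, limma adjusted p = 0.914) was smaller than its error. Mir3061, in an untranslated exon of Ppp2ca, the catalytic subunit of protein phosphatase 2A, was steadier. It had 6.81, 6.03 and 6.74 RPKM at 1.5 h and 9.30, 9.82 and 5.92 RPKM at 9.0 h, with a log2 fold change of 0.32 (SE 0.20, limma adjusted p = 0.598). Mir1839, in an exon of the noncoding RNA 2900076A07Rik, was at 4.72, 5.37 and 2.10 RPKM at 1.5 h and at 3.87, 3.63 and 7.95 RPKM at 9.0 h. Its libraries overlapped between the times, with a log2 fold change of 0.35 (SE 0.39, limma adjusted p = 0.799). In all, 28 of the 35 entries had means below 5 RPKM, as the plot of RPKM by library shows.

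**Figure D2:**
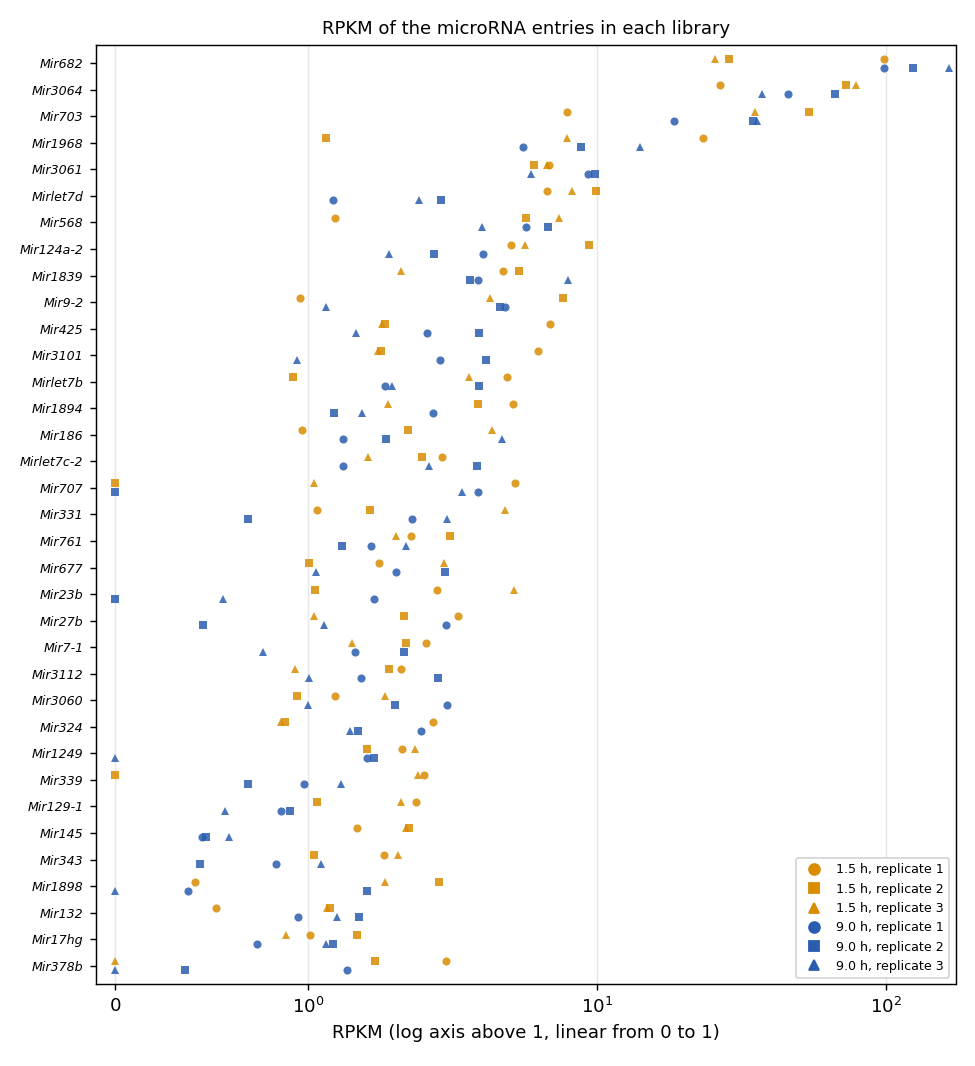
RPKM of the 35 microRNA entries in each library, ordered by their mean, on an axis that is logarithmic above 1 and linear from 0 to 1, with color for the time and symbol for the replicate. Mir682 is highest, 28 entries have means under 5 RPKM, and the 2 times are apart for 5 entries only, of which Mirlet7d and Mir145 were past the threshold.

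Between 1.5 h and 9.0 h, Mirlet7d fell. Mir145 was also past the threshold, in the same direction, but its place among the 35 depended on its 1.5 h values alone, so its test is not read as a change. These were 2 of 35, and over all 13490 genes tested 0.222% passed in either direction and 0.0741% fell (limma on log2(RPKM + 0.1), Benjamini-Hochberg adjusted p of 0.05). Of the 35 log2 fold changes, 15 were positive and 20 negative, with a median of -0.11 beside -0.003 over all genes tested. The median size of the fold change, without its sign, was 0.40 for the microRNA entries and 0.15 over all genes tested. Where no library is at 0, the pseudocount of 0.1 RPKM can pull the fold changes of low entries toward 0, but not for every entry. For Mirlet7b the log2 fold change was -0.07, -0.08 and -0.11 with pseudocounts of 0.01, 0.1 and 1 RPKM. Where a library is at 0, a pseudocount as small as 0.1 RPKM can enlarge or reverse the fold change. The log2 fold change of Mir23b was -2.41, and -1.17 with a pseudocount of 1 RPKM. For Mir339 it was 0.29, and -0.21 with a pseudocount of 1 RPKM.

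Mirlet7d encodes a let-7 microRNA and lies in an exon of the long noncoding RNA 6720427I07Rik. It was at 6.69, 9.90 and 8.18 RPKM at 1.5 h and at 1.22, 2.89 and 2.42 RPKM at 9.0 h. These came from 20, 13 and 11 reads at 1.5 h and from 4, 9 and 6 reads at 9.0 h. Every 1.5 h library was above every 9.0 h library. The mean fell from 8.26 ± 1.61 to 2.18 ± 0.86 RPKM (SD, n = 3 libraries each), a log2 fold change of -1.94 (SE 0.28, limma adjusted p = 0.0238). Pooled over libraries, 44 reads of 54840000 at 1.5 h stood against 19 reads of 86210000 at 9.0 h, a ratio of 0.275 with an exact 95% interval of 0.151 to 0.480 from counting error alone. In whole-eye RNA, fewer cells of a type and less RNA per cell cannot be told apart.

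The hairpin of Mirlet7d is shown with its mature arms in capitals, because reads anywhere on these 103 bases count toward its value.
Mirlet7d hairpin, chr13:48536012-48536114, minus strand: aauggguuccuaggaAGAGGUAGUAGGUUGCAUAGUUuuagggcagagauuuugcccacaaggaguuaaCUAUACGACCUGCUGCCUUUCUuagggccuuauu
Mirlet7a-1 and Mirlet7f-1, neighbouring let-7 genes on the same chromosome, did not meet the rule. Mirlet7a-1 had 2, 2 and 0 reads at 1.5 h and 0, 1 and 0 reads at 9.0 h. For Mirlet7f-1 the reads were 2, 1 and 3 at 1.5 h and 0, 1 and 0 at 9.0 h. In sum Mirlet7a-1 had 4 reads at 1.5 h and 1 at 9.0 h, and Mirlet7f-1 had 6 and 1. The difference of the neighbours was not tested, and nothing is read from so few reads.

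The call of Mirlet7d depended on single libraries. Its adjusted p by limma was 0.0799 without replicate 2 of 1.5 h, 0.105 without replicate 3 of 1.5 h, 0.0934 without replicate 1 of 9.0 h and 0.27 without replicate 3 of 9.0 h, with the log2 fold change between -2.18 and -1.59 over the 6 fits that each left out 1 library. With no filter on low genes the adjusted p was 0.0546, and after quantile normalization it was 0.0723.

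The other let-7 entries of the rule, Mirlet7b and Mirlet7c-2, lie in an exon of Lncppara, a single noncoding transcript unit, and did not pass. Mirlet7b was at 4.86, 0.92 and 3.61 RPKM at 1.5 h and at 1.84, 3.90 and 1.95 RPKM at 9.0 h, with a log2 fold change of -0.08 (SE 0.64, limma adjusted p = 0.977). Mirlet7c-2 was at 2.90, 2.48 and 1.61 RPKM at 1.5 h and at 1.32, 3.83 and 2.62 RPKM at 9.0 h, with a log2 fold change of 0.07 (SE 0.34, limma adjusted p = 0.963). Over all 11 let-7 entries in the tables there were 88 reads at 1.5 h and 69 at 9.0 h, of which Mirlet7d held 44 and 19. A test of Mirlet7d against its relatives was not made.

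Mir145, known from smooth muscle and vessel wall, rested on 7 reads at 1.5 h and 3 at 9.0 h. It was at 1.48, 2.24 and 2.19 RPKM at 1.5 h and at 0.45, 0.47 and 0.59 RPKM at 9.0 h, which are 3, 2 and 2 reads and then 1 read in each library. The means were 1.97 ± 0.43 RPKM at 1.5 h and 0.50 ± 0.08 RPKM at 9.0 h (SD, n = 3 libraries each). All 3 libraries that met the cutoff were from 1.5 h and none from 9.0 h, so the rule itself set the direction and the lack of overlap. The log2 fold change was -1.76 (SE 0.23, limma adjusted p = 0.0148), given as a description, and the ratio of pooled reads per depth was 0.273 with an exact 95% counting interval of 0.0455 to 1.19, which includes 1. With a pseudocount worth 1 read for each microRNA entry, an alternative chosen after seeing the data, the log2 fold change of Mir145 was -0.92 and its adjusted p 0.0768. After quantile normalization the adjusted p was 0.0554, and it was 0.0701 without replicate 3 of 1.5 h, and 0.132, 0.0617 and 0.187 without replicates 1, 2 and 3 of 9.0 h. The summed RPKM of 5 smooth muscle and vessel markers lay between 153 and 206 at 1.5 h and between 149 and 165 at 9.0 h, and the part of this in the result was not tested. Mir143, the neighbour of Mir145, had 1 read at each time.

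The 2 times did not overlap in 5 of the 35 entries (14.3%), 1 higher at 9.0 h and 4 lower. Over all genes tested this share was 18.2% (9.78% higher and 8.41% lower), so the share of the microRNA entries lay near the background and is no result about them. The higher entry was Mir682, and the lower ones were Mirlet7d, Mir145, Mir124a-2 and Mir129-1. For Mir145 and Mir129-1 the rule fixed both the separation and its direction, so nothing is read from the split into higher and lower. Mir129-1 was at 2.36, 1.07 and 2.10 RPKM at 1.5 h and at 0.86, 0.91 and 0.57 RPKM at 9.0 h. It rested on 8 reads and then 5 reads in sum, with a log2 fold change of -1.10 (SE 0.29, limma adjusted p = 0.195). At an unadjusted p of 0.05, 7 of the 35 entries passed (20.0%), beside 11.1% of all genes tested. Those 7 included Mir145 and Mir129-1, for which the rule built in a difference, so nothing is read from this share either.

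The microRNA entries varied more between replicates than most genes did. The SD within a time, on the log2(RPKM + 0.1) scale, had a median of 0.72 over the 35 entries and 0.20 over all genes tested. Among genes with a mean of 1 to 10 RPKM, it was 0.69 for the 31 microRNA entries of that range and 0.21 for the 7488 other genes. Set against the spread that counting alone gives at the depth of each library, the variance of reads within a time had a median ratio of 1.39 over 34 hairpins, and 14 of them lay below 1. It was above 2 for 13 hairpins. The 4 largest ratios were those of the 4 hairpins with the most reads, at 37.6 for Mir682, 27.6 for Mir703, 15.4 for Mir3064 and 7.84 for Mir1968. Next came Mir707 at 3.89 and Mir9-2 at 3.31, and the ratio was 0.87 for Mirlet7d.

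**Figure D3:**
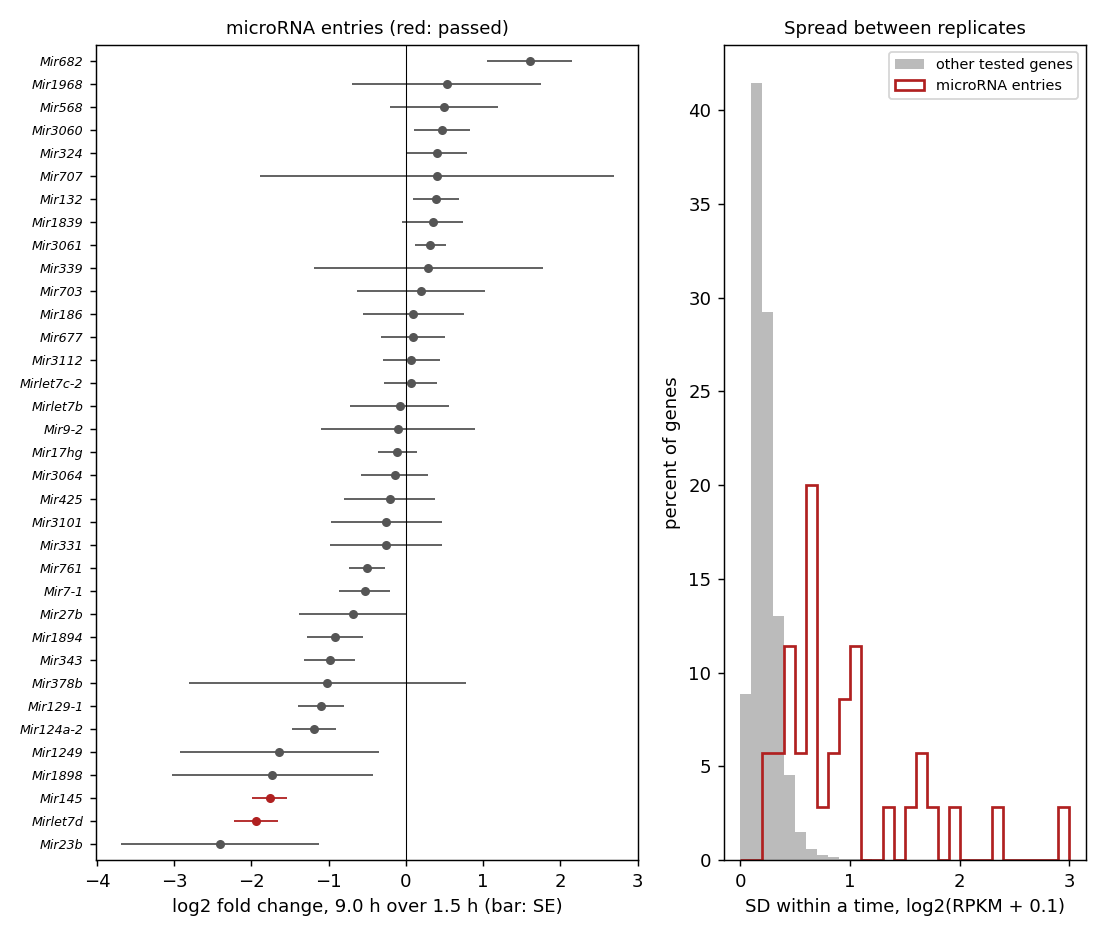
Left, log2 fold change of each of the 35 microRNA entries (9.0 h over 1.5 h) with its SE as bars, in red where the limma adjusted p passed 0.05; right, the SD within a time on the log2(RPKM + 0.1) scale for the 35 entries and the other tested genes. Mirlet7d and Mir145 are the 2 red points, Mir23b has a larger negative fold change with a wide bar, and the median SD is 0.72 for the microRNA entries against 0.20 over all tested genes.

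Some entries with libraries at 0 or at a single read had wide errors. Mir23b, in an intron of 2010111I01Rik, had the most negative log2 fold change of the 35, -2.41 (SE 1.28, limma adjusted p = 0.587). Its values were 2.79, 1.06 and 5.18 RPKM at 1.5 h and 1.69, 0 and 0.56 RPKM at 9.0 h, so 1 library listed at 0 entered the fit. Mir27b, of the same cluster and the same host, had 10 reads at each time and a log2 fold change of -0.68 (SE 0.70, limma adjusted p = 0.782). Mir707, in an untranslated exon of Akt1s1, was listed at 0 in 1 library of each time and had a log2 fold change of 0.40 (SE 2.29, limma adjusted p = 0.966). In all, 6 hairpins had a library listed at 0.

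The photoreceptor cluster did not reach the rule. Mir183 had 2 reads over the 6 libraries, Mir96 had 5 and Mir182 had 4, in sum 8 reads at 1.5 h and 3 at 9.0 h. Replicate 1 of 1.5 h held 7 of the 11. Their highest single values were 1.09, 1.30 and 0.92 RPKM, each from 4 or fewer reads. The pigment cell pair, Mir204 and Mir211, had 1 and 4 reads. In the shallowest library, 3 reads correspond to 3.36 RPKM for Mir183 and 3.46 RPKM for Mir204. A difference between the times was not tested in either group.

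Among 19 entries known from the neural retina, 3 met the rule, Mir124a-2, Mir9-2 and Mir7-1, and 6 were listed at 0 everywhere. The 19 held 73 reads at 1.5 h and 72 at 9.0 h, of which the 3 kept entries held 63 and 65. Mir124a-2 lies partly in an exon of Mir124-2hg, named 2610100L16Rik in the tables. It was at 5.05, 9.36 and 5.62 RPKM at 1.5 h and at 4.03, 2.73 and 1.90 RPKM at 9.0 h, from 37 and then 28 reads. Each 1.5 h library exceeded each 9.0 h library, and the log2 fold change of -1.19 (SE 0.29) did not pass, with an adjusted p of 0.153 by limma. Its host was at 37.2, 56.2 and 54.0 RPKM at 1.5 h and at 34.2, 45.2 and 47.2 RPKM at 9.0 h, overlapping between the times, with a log2 fold change of -0.21 (SE 0.19, limma adjusted p = 0.744). Mir124a-1 was listed at 0 in every library, and Mir124a-3 had 2 reads in all.

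Mir9-2 was at 0.96, 7.63 and 4.26 RPKM at 1.5 h and at 4.79, 4.60 and 1.15 RPKM at 9.0 h, with a log2 fold change of -0.10 (SE 1.00, limma adjusted p = 0.984). The times overlapped widely. It lies in an exon of the noncoding RNA C130071C03Rik, which was below 1 RPKM throughout and was not tested. That host was at 0.73, 0.80 and 0.95 RPKM at 1.5 h and at 0.39, 0.44 and 0.33 RPKM at 9.0 h, with no overlap. Mir7-1, in an intron of Hnrnpk, had values of 2.55, 2.18 and 1.42 RPKM at 1.5 h and 1.45, 2.15 and 0.77 RPKM at 9.0 h. Its log2 fold change was -0.53 (SE 0.33, limma adjusted p = 0.606). Mir132, known as a microRNA induced by neuronal activity and light, had 1 read in each 1.5 h library and 2, 3 and 2 reads at 9.0 h. In RPKM the times overlapped, at 0.52, 1.19 and 1.16 and then 0.95, 1.51 and 1.26, with a log2 fold change of 0.39 (SE 0.30, limma adjusted p = 0.687).

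**Figure D4:**
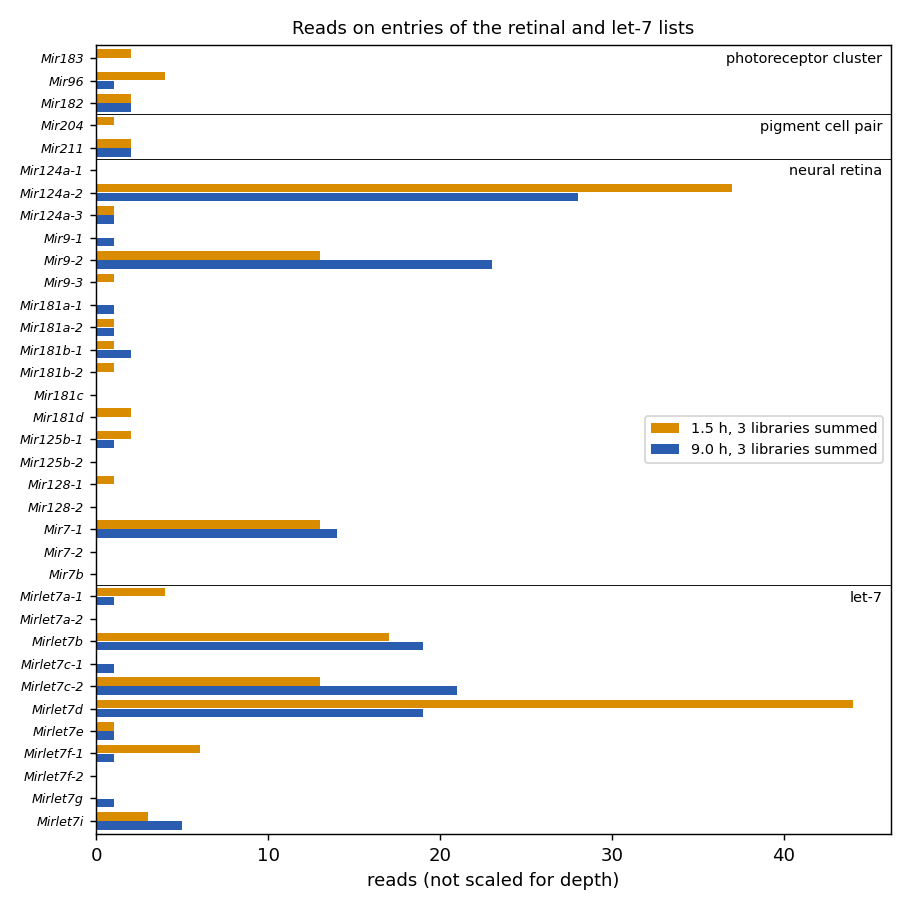
Reads on each entry of the photoreceptor cluster, the pigment cell pair, the neural retina list and the let-7 list, summed over the 3 libraries of each time and not scaled for depth (54840000 reads at 1.5 h and 86210000 at 9.0 h). Mir124a-2, Mir9-2, Mir7-1, Mirlet7b, Mirlet7c-2 and Mirlet7d carry most of the reads, and the photoreceptor cluster holds 11 in all.

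Hairpin entries of microRNAs known from other tissues of the eye held few reads. Mir205, known from corneal epithelium, had 5 reads, all in replicate 3 of 9.0 h (3.05 RPKM), and Mir184, known from lens and cornea, had 4 reads. The 3 smooth muscle and vessel entries held 22 reads, 10 of them on Mir145. The 9 muscle entries held 2 reads, the 6 stromal entries 10 and the 6 blood entries 3, and all 4 miR-29 entries were listed at 0 in every library. The RPKM of 5 lens markers, none of them at 0 in all libraries, summed to between 63421 and 88372 at 1.5 h and to between 92959 and 107501 at 9.0 h. These sums did not overlap between the times, and their part in the results on the microRNA entries was not tested.

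Most of the kept hairpins lie within a longer gene on the same strand. In GENCODE M21, 31 of them had such a host, of which 22 overlapped an exon of some host transcript (19 wholly) and 9 lay in an intron. For 5 of the 22 the host was a protein-coding gene, but the exon belonged to a transcript not classed as protein-coding. Another 2 of the 22, Mir124a-2 and Mir343, lay mostly outside an exon. Mir703, Mir145 and Mir378b had no host on their strand, but Cfap299 overlapped Mir703 and Msi2 overlapped Mir378b on the opposite strand. Opposite-strand genes also overlapped some hairpins with a host, such as Mir3061 and Mir23b. The part of opposite-strand genes in the values was not tested. Of the 22 that overlapped an exon, 1 passed the limma test (Mirlet7d) and 6 (27.3%) had an unadjusted p under 0.05. The 6 included Mir129-1, for which the rule built in a difference between the times, so nothing is read from that share. Of the 9 in introns, none passed and 0 had an unadjusted p under 0.05. Over all genes tested these shares were 0.222% and 11.1%, and a difference between exons and introns was not tested. Replicate spread was high in both, with a median SD of 0.69 and 0.97 on the log2 scale.

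A host was present in the tables for 23 entries, and 21 of these had a lower mean RPKM than their host. The exceptions were Mir9-2, at 3.90 RPKM with a host at 0.61, and Mir568, at 5.12 RPKM with a host at 3.16. At the other end, Mir677, in Atp5b, a subunit of the mitochondrial ATP synthase, was at 1.96 RPKM with a host at 675. Mir677 lies in an intron, and Mir7-1 was likewise far below Hnrnpk, at 1.75 RPKM against 72.5.

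**Figure D5:**
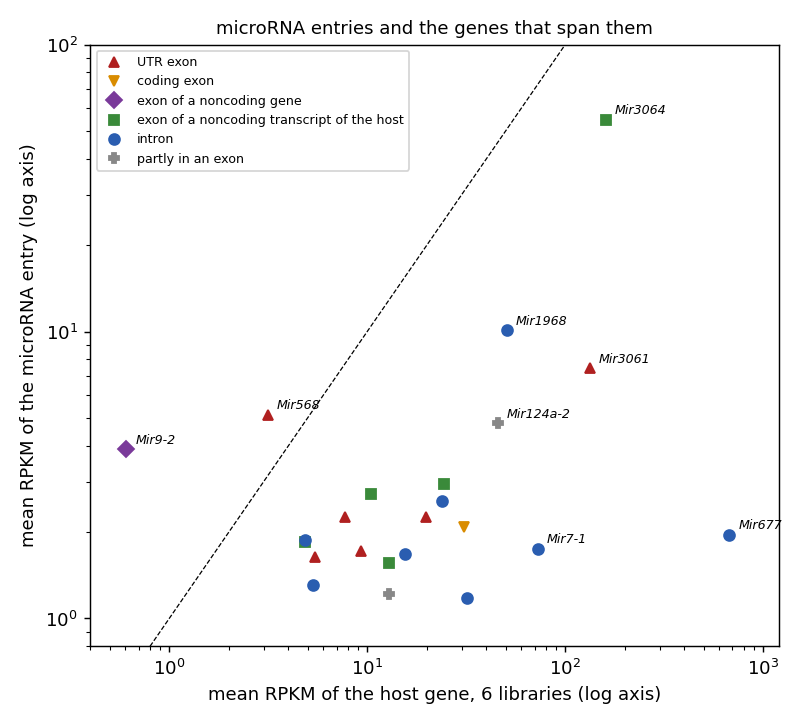
Mean RPKM over 6 libraries of each of 23 microRNA entries against that of its host gene, both on log axes, with symbols for the position of the hairpin in the host and a dashed line where both are equal. Mir9-2 and Mir568 lie above the line and the other 21 below it.

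None of the 21 host genes tested changed between the times by limma (4 passed at an unadjusted p of 0.05, beside 0.222% of all genes at the adjusted and 11.1% at the unadjusted threshold). The largest change was in Zbtb20, a zinc finger repressor and the host of Mir568, which was at 4.27, 4.32 and 3.76 RPKM at 1.5 h and at 2.61, 1.49 and 2.51 RPKM at 9.0 h. Its log2 fold change was -0.91 (SE 0.22, limma adjusted p = 0.1495), and the times did not overlap. Mir568, in an untranslated exon of that gene, was at 1.24, 5.67 and 7.38 RPKM at 1.5 h and at 5.67, 6.78 and 4.00 RPKM at 9.0 h, overlapping, with a log2 fold change of 0.50 (SE 0.70, limma adjusted p = 0.849). Hnrnpk, an RNA-binding protein and the host of Mir7-1, was at 53.6, 73.5 and 56.6 RPKM at 1.5 h and at 80.8, 95.9 and 74.7 RPKM at 9.0 h, a log2 fold change of 0.46 (SE 0.17, limma adjusted p = 0.347) while that of Mir7-1 was -0.53. A difference between a hairpin and its host was not tested.

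Among the genes that make and use microRNAs, Ddx5 and Ddx17, helicases of the Drosha complex, had the highest means, at 161 and 59.5 RPKM. Lin28a and Lin28b, which block let-7 processing, had the lowest, at 0.42 and 0.06 RPKM. Of 31 such genes, 29 were tested and none passed by limma, beside 0.222% of all genes. At an unadjusted p of 0.05 there were 5 (17.2%), beside 11.1% of all genes. Their log2 fold changes were positive in 10 and negative in 19, with a median of -0.10 beside -0.003 over all genes. In 8 of them the times did not overlap, 3 higher and 5 lower (27.6%, beside 18.2% of all genes tested). Drosha was at a mean of 13.3 RPKM with a log2 fold change of 0.15 (SE 0.14, limma adjusted p = 0.770), and Dicer1 at 4.85 RPKM with -0.16 (SE 0.18, limma adjusted p = 0.798). Among the Argonaute genes, Eif2c2, which encodes the slicing Argonaute, had a log2 fold change of -0.67 (SE 0.19, limma adjusted p = 0.226), and Eif2c3 had -0.92 (SE 0.20, limma adjusted p = 0.105). Tnrc6b, a silencing partner of Argonaute, had -0.77 (SE 0.17, limma adjusted p = 0.128), and Mov10, a helicase bound to Argonaute, had 0.55 (SE 0.17, limma adjusted p = 0.282).

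Replicate 1 of 1.5 h stood apart for several entries, being highest at 1.5 h for Mir682 and Mir1968 and lowest for Mir3064, Mir703, Mir568 and Mir9-2. That library also had the lowest sum of lens, stromal, skeletal muscle, pigment epithelium, neuron and blood markers. It was not the lowest for rod, melanin, corneal, glial or smooth muscle and vessel markers. Over all genes its RPKM summed to 393433, against 484249 to 546836 in the others. Each result was computed again without this library. Without it, 10 of the 35 entries passed, and 1245 of all genes, against 30 with it. Those 10 were Mirlet7d and Mir145 with Mir682 (log2 fold change 2.22), Mir3064 (-0.64), Mir703 (-0.62), Mir124a-2 (-1.36), Mir1894 (-0.62), Mir324 (0.91), Mir129-1 (-0.90) and Mir343 (-0.88). The sign of Mir703 differed from that with all libraries. In that fit the prior degrees of freedom in limma were infinite for the median gene, against 6.5 with all libraries, so the test there rested on a spread shared across genes and little on the entry's own replicates.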

How the data were processed

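Poly(A) RNA from 6 whole-eye libraries was sequenced. Per the labels' protocols, poly(A) RNA was isolated with Oligotex and cDNA was made with random primers, and per the submitters' processing notes GSNAP, HTSeq and mm9 were used. Versions, the annotation and how strand or multiply matching reads were handled: not given in the sources used here. The deposited tables hold 1 RPKM value per gene and library, a unit read from the numbers themselves. Values were tested as log2(RPKM + 0.1) with limma 3.58.1 in R 4.3.3 (eBayes with trend and robust settings, 9.0 h minus 1.5 h, two-sided, Benjamini-Hochberg), over the 13490 genes at 1 RPKM or more in at least 3 libraries. No count test was run. No single-gene permutation test can pass with 3 libraries against 3. Reads were recovered as RPKM times RefSeq hairpin length; over all microRNA entries above 0, between 97.7% and 99.2% of values per library were whole within 0.1 read. Hosts come from GENCODE M21, and copies from blastn 2.17.0 (at least 90% identity over 90% of the hairpin). Ratios of pooled reads have exact binomial 95% intervals. Correlations between libraries lay between 0.948 and 0.989, and no pair of libraries was identical. The test was also run on simulated normal values with the same SD for every gene. That setting differs from entries of few reads and wide spread, so the run does not bear on the microRNA entries. Named entries are those past the test, the 10 with the highest means, those with times that do not overlap, the retinal, let-7 and other tissue lists, and, of hosts and biogenesis genes, those called and the 2 with the highest means; others were named after their values were seen. The entries and lists were chosen with earlier results of these data known. Alternatives covered the pseudocount, the filter, quantile normalization, the replicate number as a block and leaving out each library.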

Additional observations from a re-analysis of the deposited data

How the results depend on the processing

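The number of genes called over all genes was 30, and it was 15 after quantile normalization, 141 with the replicate number as a block, and between 2 and 1245 when 1 library was left out. The count of 2 microRNA entries called became 1 without a filter, 1 among entries at 1 RPKM or more in all 6 libraries, 0 after quantile normalization, 1 with a pseudocount worth 1 read (chosen after seeing the data), and between 0 and 10 with 1 library left out. It was 0 without replicate 3 of 1.5 h or without replicates 1 or 3 of 9.0 h. Biogenesis genes called went from 0 to 2 and hosts from 0 to 1 with the replicate block, and to at most 2 and 3 with 1 library left out. The median log2 fold change of the microRNA entries, -0.108 in the main fit, ranged from -0.452 to -0.006 with 1 library left out. Among only the entries at 1 RPKM or more in all 6 libraries it was positive, at 0.077. The cause of these shifts was not tested.

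Deviations of same-numbered libraries from their time means correlated at 0.347, 0.484 and -0.215, and not every library correlated best with its own number, so the numbers were not taken as pairs. With the block, Mir343 passed (-0.99, adjusted p = 0.0432), and Mirlet7d and Mir145 did too.

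Of 469 alternative values of single entries, 409 kept direction and side of the threshold and 39 changed sign. Outside the fits with a library left out, Mir339 alone changed sign, to -0.21 and -0.08 with pseudocounts of 1 and 10 and to -0.20 with 1 read. With 1 library left out, log2 fold changes crossed 0 for Mir3064 (-0.64 to 0.14), Mir703 (-0.62 to 0.76), Mir1968 (-0.62 to 1.49), Mir568 (-0.27 to 0.97), Mir1839 (-0.06 to 0.60), Mir9-2 (-0.92 to 0.54), Mir425 (-0.53 to 0.41), Mir3101 (-0.68 to 0.34), Mirlet7b (-0.77 to 0.37), Mir186 (-0.43 to 0.59), Mirlet7c-2 (-0.27 to 0.47), Mir707 (-1.14 to 2.14), Mir331 (-0.69 to 0.34), Mir677 (-0.28 to 0.46), Mir3112 (-0.30 to 0.40), Mir339 (-1.27 to 1.09) and Mir17hg (-0.25 to 0.10). Depth limits most entries to a few reads.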

Other observations

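Mir5109 fell just short of the rule with 2 libraries at 1 RPKM or more and is named after its values were seen. It was at 79.9 RPKM in replicate 1 of 1.5 h, at 0.90 and 2.64 RPKM in the other libraries of 1.5 h, and listed at 0 in all 3 libraries of 9.0 h. Mir126, known from vascular endothelium, also fell short, with 0, 5 and 2 reads at 1.5 h and 1, 2 and 0 reads at 9.0 h.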
